A study of Danio rerio with 4 samples.

Results

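The 7 genes described here encode enzymes that break down phenylalanine and tyrosine: pah, tat, hpdb, hgd, fah, pcbd1 and qdpra. They were taken by symbol from the 39988 genes listed for single-cell RNA sequencing of the zebrafish calvaria, the bony roof of the skull. The files list them as pah (LL0000021216), tat (LL0000029981), hpdb (LL0000012295), hgd (LL0000012078), fah (LL0000009948), pcbd1 (LL0000021349) and qdpra (LL0000022986). Genome positions and sequences of the build used for alignment were not analysed here.

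Phenylalanine hydroxylase, encoded by pah, turns phenylalanine into tyrosine with the cofactor tetrahydrobiopterin. Pcbd1, a pterin dehydratase, and qdpra, a dihydropteridine reductase, return the spent cofactor to its active form. Tyrosine is then degraded in order by tyrosine aminotransferase (tat), hydroxyphenylpyruvate dioxygenase (hpdb), homogentisate dioxygenase (hgd), maleylacetoacetate isomerase (gstz1, no member of the list) and fumarylacetoacetase (fah), which releases fumarate and acetoacetate. In mammals the pathway is known mainly from liver and kidney.

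The study compared calvaria before sutures form, in juvenile fish of 9 to 11 mm, with adult fish of 22 to 25 mm, in 2 libraries a stage. Juvenile 1 came from fish carrying ecad:YFP, an epithelial reporter, and adult 1 from fish carrying the same reporter, and cells with YFP were depleted from both by sorting. Juvenile 2 came from fish carrying the osteoblast reporter sp7:GFP and was depleted of cells with GFP, and adult 2 came from Tubingen fish and was sorted with no reporter gate. The labels give the strain as Tubingen for all 4 libraries. All cells were selected as negative for the dye DAPI, which marks dead cells, and calvaria of 20 juvenile or 10 adult fish were pooled, with no word on whether each library had its own number. The sorting gate is the same at both stages for juvenile 1 and adult 1 alone, so in the other pair gate and stage cannot be told apart. The libraries of a stage came from different fish lines, hence from separate pools of fish. P-values between stages measure the spread between pools that differ in line and gate as well. For contrasts within libraries, fitted with library as a block, p-values measure how far the contrast varies between these pools.

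Values are unique molecular identifiers (UMIs), each standing for a captured transcript, and levels are CPM, the UMIs of a gene per 1000000 UMIs of the cells summed. The 4 libraries held 21645 barcodes, of which 21311 were kept as cells, with a median of 1878, 2064, 2815 and 1929 UMIs per cell in juvenile 1, juvenile 2, adult 1 and adult 2. A cell was assigned to 1 of 19 kinds when it had UMIs of at least 3 of the 8 markers of that kind and of more than any other; 12434 cells were assigned, 8283 were not and 594 were tied. Names of kinds mean "-like" throughout. No member is a marker. Pairs of libraries shared 14 to 104 barcodes, at most 1.38% of the smaller library. No cell was assigned to hepatocytes, and the 8 hepatocyte markers together reached 1.76 to 4.08 CPM in the 4 libraries.

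Most UMIs of the pathway lay in fibroblast-like cells, which were assigned by 8 connective-tissue markers including dcn, lum, pdgfra, prrx1a and prrx1b. These cells made up 10.7%, 8.25%, 44.2% and 41.4% of the cells of juvenile 1, juvenile 2, adult 1 and adult 2, and held 55.5%, 74.0%, 84.3% and 61.8% of all member UMIs. The study recognised dermal fibroblasts in these libraries by their high level of genes of this pathway and used pah as their label, so the height of the 7 genes in fibroblast-like cells is not independent evidence. The study also used prrx1a as a label of mesenchyme in and around sutures. Fibroblast-like cells may therefore pool several cell types, and whether those with and without members are of the same type was not tested. The 8 markers together stood at 1140, 801, 4785 and 6549 CPM over all kept cells, against 4577, 6049, 7164 and 6652 in fibroblast-like cells. In adult 2 the markers were thus hardly higher in the assigned cells. At least 2 of them were found in 4.44%, 4.38%, 11.8% and 35.9% of unassigned cells with no member.

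At the entry step, pah in fibroblast-like cells stood at 198 CPM in juvenile 1, 215 in juvenile 2, 420 in adult 1 and 150 in adult 2. In the other assigned cells pah stood at 15.5, 3.58, 24.3 and 56.0 in the same order of libraries, so the groups did not overlap. The cofactor gene pcbd1 stood at 211, 199, 368 and 98.6 CPM in fibroblast-like cells, against 27.2, 16.8, 85.0 and 47.4 in the others. The second cofactor gene, qdpra, stood at 122, 318, 223 and 92.1, against 14.4, 17.0, 47.3 and 44.8. For pah, pcbd1 and qdpra alike, the lowest fibroblast-like value belonged to adult 2.

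Along the tyrosine branch, tat stood at 1044, 815, 542 and 246 CPM in fibroblast-like cells and at 46.3, 15.6, 22.1 and 166 in the other assigned cells. The next enzyme gene, hpdb, stood at 2070, 1734, 942 and 471, against 106, 21.4, 123 and 246. The values of hgd were 852, 820, 476 and 269, against 151, 32.2, 74.2 and 108. The last enzyme gene, fah, stood at 135, 88.9, 92.0 and 30.2, against 23.5, 11.0, 22.1 and 11.2. Both juvenile libraries lay above both adult libraries for tat, hpdb and hgd in fibroblast-like cells, while fah and the pah and cofactor genes overlapped between stages. With 2 libraries a stage such a separation can easily arise by chance, and its share over all genes was not computed.

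All 7 genes were higher in fibroblast-like cells than in the other assigned cells of the same libraries (edgeR quasi-likelihood test with library as a block, adjusted over 14825 genes). The log2 fold change ran from 2.63 (SE 0.39, adjusted p = 0.00591) for fah to 4.46 (SE 1.02, adjusted p = 0.0214) for tat, and hpdb, at 3.97 (SE 1.00), had the largest adjusted p, 0.0291. Of all genes tested, 8.88% were called higher, 14.2% lower and 23% in either direction. The count fell to 1 gene (fah) without juvenile 1 and to 3 genes (fah, pcbd1 and qdpra) without adult 1, with log2 fold changes of 2.50 to 4.33 in both fits. Over all genes the calls of higher fell as well, from 1317 of 14825 to 440 of 13331 and 956 of 14178.

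**Figure D1:**
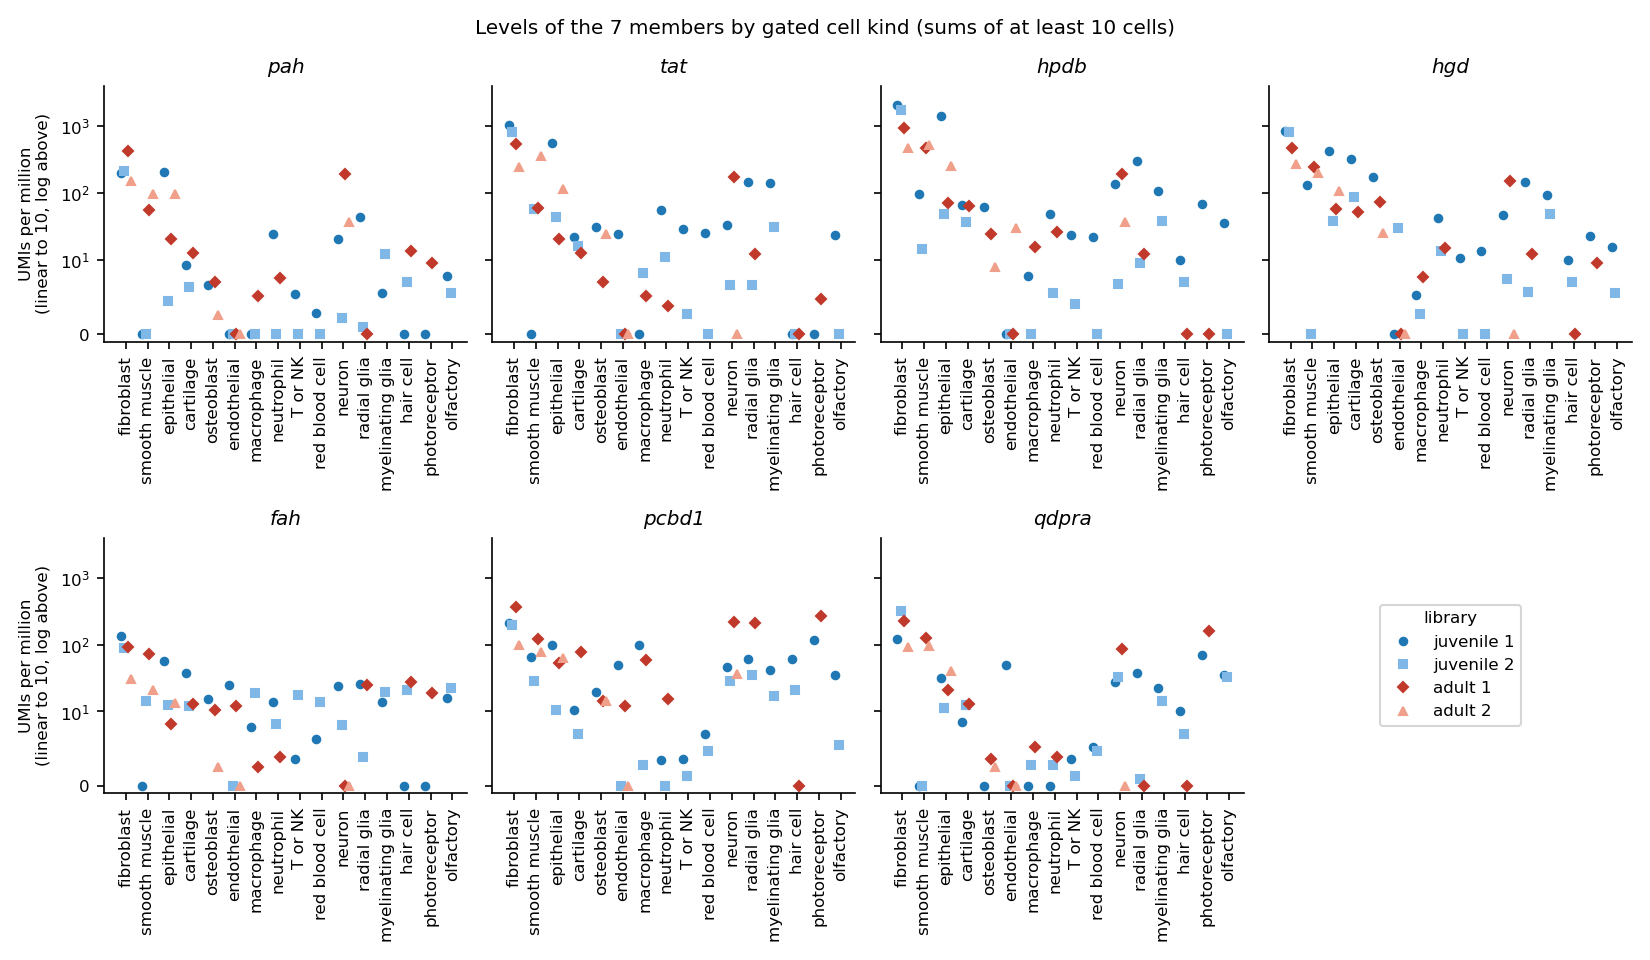
CPM of each of the 7 genes (panels) in each assigned cell kind, for sums of at least 10 cells; the vertical axis is linear up to 10 and logarithmic above. Each point is a library. Fibroblast-like cells stand high in all 7 panels, with hpdb between 471 and 2070, while hgd reached 324 in cartilage-like cells and pcbd1 267 in photoreceptor-like cells of single libraries.

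Set against single kinds, each of the 7 genes was higher in fibroblast-like cells than in osteoblast-, cartilage-, endothelial-, epithelial- and macrophage-like cells (edgeR, library as a block, 3 or 4 libraries with both sums). Smooth muscle-like cells were not tested in this way, and their levels are given below. The genes called higher made up 11.1%, 11.6%, 14.2%, 11.6% and 23.1% of those tested in these 5 comparisons. The smallest of the 35 differences was fah against cartilage-like cells, at a log2 fold change of 1.98 (SE 0.55, adjusted p = 0.00299). Without juvenile 2, hgd and fah against cartilage-like cells and pah against epithelial-like cells no longer passed. In endothelial-like cells pah had 0 UMIs in 82 cells of 4 libraries. Against the limit of 3 UMIs over these cells, 13.0 CPM, pah was at least 19.1-fold higher in fibroblast-like cells, whose pooled level was 248. Without adult 1 the limit over the endothelial-like cells was 20.2 CPM and the bound 9.07-fold.

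T or NK-like cells, which are not expected to use this pathway, give a comparison level in the juvenile libraries. Their hpdb level was 23.4 CPM in juvenile 1 (158 cells, median 2931 UMIs) and 4.09 in juvenile 2 (119 cells, median 5538 UMIs). After each cell was thinned to 1000 UMIs, hpdb had a UMI in 1.40% and 0.855% of T or NK-like cells. The same share was 56.1% and 43.2% in fibroblast-like cells of these libraries, whose median depths were 3067 and 3093 UMIs. In juvenile 2, T or NK-like cells had fah at 17.7 CPM (9.43 to 30.3), and the sum of the assigned cells other than fibroblasts had 11.0.

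Adult 1 had 3 T or NK-like cells and adult 2 had none. In adult 1 the 179 neutrophil-like cells (median 1079 UMIs) had hpdb at 26.6 CPM (10.7 to 54.9), and hgd and pcbd1 at 15.2 each (4.15 to 39.0). Adult 2 had no blood cell kind of at least 10 cells, so its levels outside fibroblast-like cells stand without such a comparison.

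Skeletal cells had more hgd for their hpdb than fibroblasts had. In cartilage-like cells hgd stood at 324 CPM in juvenile 1 (95% exact Poisson interval 307 to 343, 498 cells) and at 86.7 in juvenile 2 (76.9 to 97.3, 562 cells). T or NK-like cells had 10.8 CPM of hgd in juvenile 1 and 0 in juvenile 2, so both cartilage levels lay above them. Per 100 UMIs of hpdb, cartilage-like cells had 484.5 UMIs of hgd in juvenile 1 and 238 in juvenile 2, where fibroblast-like cells had 41.1 and 47.3. After thinning to 1000 UMIs, 16.6% of the cartilage-like cells of juvenile 1 and 5.34% of those of juvenile 2 had a UMI of hgd. Intervals cover counting error alone. The 12 cartilage-like cells of adult 1 had 4 UMIs of hgd, 51.6 CPM (14.1 to 132), below juvenile 1 and overlapping juvenile 2, and adult 2 had 3 such cells.

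Osteoblast-like cells leaned the same way. Their hgd level was 176 CPM in juvenile 1 (139 to 219), 74.4 in adult 1 (46.1 to 114) and 25.7 in adult 2 (15.7 to 39.7). Per 100 UMIs of hpdb they had 285.7, 300 and 285.7 UMIs of hgd in these libraries, resting on 28, 7 and 7 UMIs of hpdb. The hpdb level of osteoblast-like cells in adult 1, 24.8 CPM, did not exceed that of its neutrophil-like cells. Juvenile 2, sorted against sp7:GFP, had no osteoblast-like cell. In both skeletal kinds each of the 7 genes, hgd included, lay below its own level in fibroblast-like cells of the same library.

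The cofactor gene pcbd1 came closer to its fibroblast level in some other kinds than hpdb did. Macrophage-like cells had pcbd1 at 100.1 CPM in juvenile 1 (70.8 to 137) and at 59.6 in adult 1 (37.8 to 89.4), where fibroblast-like cells had 211 and 368. In juvenile 2 it stood at 2.74, on 1 UMI, so the juvenile libraries disagreed. Their hpdb level was 7.90 in juvenile 1, 15.5 in adult 1 and 0 in juvenile 2, each below that of the blood cells used for comparison in the same library. Photoreceptor-like cells of adult 1 had pcbd1 at 267 (202 to 347) and qdpra at 162 (112 to 227), against 368 and 223 in fibroblast-like cells, with 0 UMIs of hpdb and 1 of tat in 48 cells. Radial glia-like cells had pcbd1 at 61.1 in juvenile 1, 35.3 in juvenile 2 and 209 in adult 1. Their hpdb level was 304, 9.54 and 12.3, so that of juvenile 1 stood apart. There 9 of 297 radial glia-like cells had at least 3 members, with a median of 5434 UMIs against 1366 in those with none. At least 2 fibroblast markers were found in 77.8% of these 9 cells and in 3.15% of those with none. Beyond its part in this pathway, tetrahydrobiopterin serves the hydroxylases that make serotonin and dopamine, and in mammals Pcbd1 also binds the transcription factor HNF1.

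In epithelial-like cells the levels depended on the markers that defined the cells. With all 8 markers, hpdb stood at 1437 CPM in juvenile 1, 48.2 in juvenile 2, 70.6 in adult 1 and 254 in adult 2. The pah level of epithelial-like cells in juvenile 1, 208 (148 to 283), was the highest of any kind there and overlapped that of fibroblast-like cells, 198 (182 to 215), and in the other libraries it was 4.50, 20.8 and 97.1. In juvenile 1, 11 of 104 epithelial-like cells had at least 3 members, and these 11 had a median of 2 fibroblast markers, against 0 in the cells with no member. Their median depth was 4008 UMIs, against 1015 in the cells with no member. The keratin genes krt4 and krt91 and the actin-binding gene tagln were also found in fibroblast-like cells, with a UMI in 33.3% to 48.3% of them for krt4, 64.1% to 81.1% for krt91 and 8.56% to 62.8% for tagln across the libraries. When these 3 markers were left out, a choice made after seeing the data, none of those 11 cells stayed epithelial-like, and hpdb stood at 0, 6.73, 32.0 and 0. The log2 fold change of hpdb between fibroblast- and epithelial-like cells then rose from 2.77 to 7.43 (adjusted p = 1.68e-22, edgeR). Of the 11, 12, 6 and 8 epithelial-like cells with at least 3 members, 0, 0, 1 and 0 stayed. Among them 0, 4, 0 and 1 became fibroblast-like, and 11, 8, 5 and 7 became unassigned or tied. All epithelial-like cells, with or without members, fell from 104, 463, 56 and 84 to 18, 291, 29 and 36. A larger contrast was thus in part fixed by the choice of markers. The epithelial-like cells left had 0, 11, 5 and 0 UMIs of hpdb in 18, 291, 29 and 36 cells, so the fitted fold change is no bound.

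Smooth muscle-like cells of the adult libraries were different. Their hpdb level was 479 CPM in adult 1 (102 cells) and 518 in adult 2 (195 cells), and without tagln and the keratins it stayed at 456 and 497. For tat the levels were 58.9 in adult 1 and 358 in adult 2. In adult 2 hpdb, tat and qdpra stood above their levels in fibroblast-like cells, and pah, hgd, fah and pcbd1 below. In adult 1 all 7 genes stood below. Whether single genes differed beyond counting error was not tested. In adult 2 the smooth muscle-like cells had 375 UMIs of hpdb, 70 of qdpra, 57 of pcbd1 and 15 of fah. Over all 7 genes, smooth muscle-like and fibroblast-like cells of adult 2 had 1368 (1284 to 1456) and 1356 (1319 to 1395) CPM, which overlapped, while in adult 1 they had 1154 and 3063. Juvenile smooth muscle-like cells were few, 13 and 26, with 3 and 1 UMIs of hpdb. The 50 and 74 adult smooth muscle-like cells with at least 3 members had a median of 3 fibroblast markers, against 2 and 1 in those with no member. They were also deeper, with medians of 5236 and 4708.5 UMIs against 2105 and 1725.5, and deeper cells have UMIs of more markers. The part of cells with transcripts of both kinds in these levels was not tested, and no doublets were removed.

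Some cells had UMIs of several members. Cells with UMIs of at least 3 members were 9.92%, 5.03%, 33.8% and 15.9% of the cells of juvenile 1, juvenile 2, adult 1 and adult 2, and they held 85.7%, 87.0%, 90.5% and 80.5% of member UMIs. Because these cells were chosen by the members, a large share is built in, and the share for unlinked genes was not computed. All 7 genes were found together in 93, 53, 82 and 20 cells. Of the cells with at least 3 members, 57.8%, 73.4%, 80.6% and 61.3% were fibroblast-like and 22.9%, 8.77%, 5.85% and 15.2% were unassigned.

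Deeper cells have UMIs of more genes, so cells were compared after thinning to 1000 UMIs. Then 33.1% of the fibroblast-like cells of juvenile 1 had at least 3 members (95% exact binomial interval 30.0 to 36.4), 29.8% of juvenile 2, 34.3% of adult 1 and 8.70% of adult 2. Without thinning the shares were 53.9%, 44.8%, 61.8% and 23.5%. Among the other assigned cells the thinned shares were 1.23%, 0.350%, 1.68% and 4.32%. Within fibroblast-like cells adult 2 stood apart from the other 3 libraries on either count. There the fibroblast markers were hardly higher in these cells than over all kept cells. Whether that bears on the shares was not tested. Thinning left out 46, 84, 13 and 135 fibroblast-like cells and 912, 965, 109 and 47 others as too shallow.

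**Figure D2:**
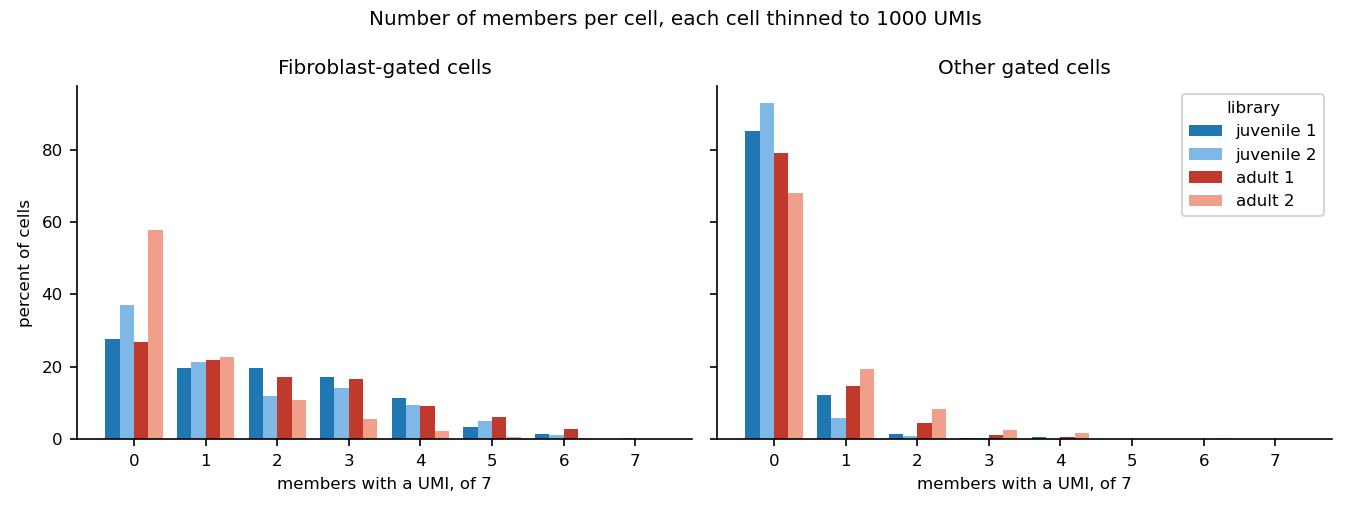
Share of cells (vertical axis, percent) by the number of the 7 genes with a UMI (horizontal axis), with each cell thinned to 1000 UMIs; bars are libraries. In fibroblast-like cells (left) 33.1%, 29.8%, 34.3% and 8.70% of cells had at least 3 members, against 0.350% to 4.32% of the other assigned cells (right).

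Within fibroblast-like cells each gene was measured in cells chosen by the other 6. In cells with at least 2 of the others, pah stood at 255, 295, 533 and 283 CPM, against 3.14, 10.8, 21.9 and 15.4 in cells with none of them. For hpdb the levels were 2893, 2561, 1243 and 954, against 176, 94.1, 122 and 80.8. For qdpra they were 152, 445, 284 and 163, against 12.4, 8.02, 18.9 and 17.0. The groups did not overlap for any of the 7 genes.

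The left-out gene was higher in all 7 fits (edgeR, library as a block). Its log2 fold change was 4.89 (SE 0.31) for pah, 4.24 (SE 0.36) for qdpra, 4.17 (SE 0.33) for hpdb, 3.78 (SE 0.24) for tat, 3.32 (SE 0.25) for pcbd1, 3.20 (SE 0.29) for hgd and 3.04 (SE 0.26) for fah. The largest adjusted p among them was 0.000146. Of all genes tested, 2.72% were called higher in the fit for pah, 2.69% for tat, 2.86% for hpdb, 2.36% for hgd, 2.73% for fah, 2.6% for pcbd1 and 2.81% for qdpra. Cells with several members were deeper, with a median of 3470 UMIs against 1928 in the pah fit of juvenile 1. When cells were thinned to 1000 UMIs before the groups were formed, all 7 genes again passed. Over all genes, the calls of higher in these thinned fits ran from 94 of 3164 (hpdb) to 96 of 2662 (pah). Over the 42 ordered pairs of genes, the second was found more often in thinned cells with the first than in those without it, in all 4 libraries. Both orders of a pair always go the same way, so the 42 are not separate results. The median share was 24.1% against 11.3% in juvenile 1 and 22.6% against 6.30% in adult 2.

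**Figure D3:**
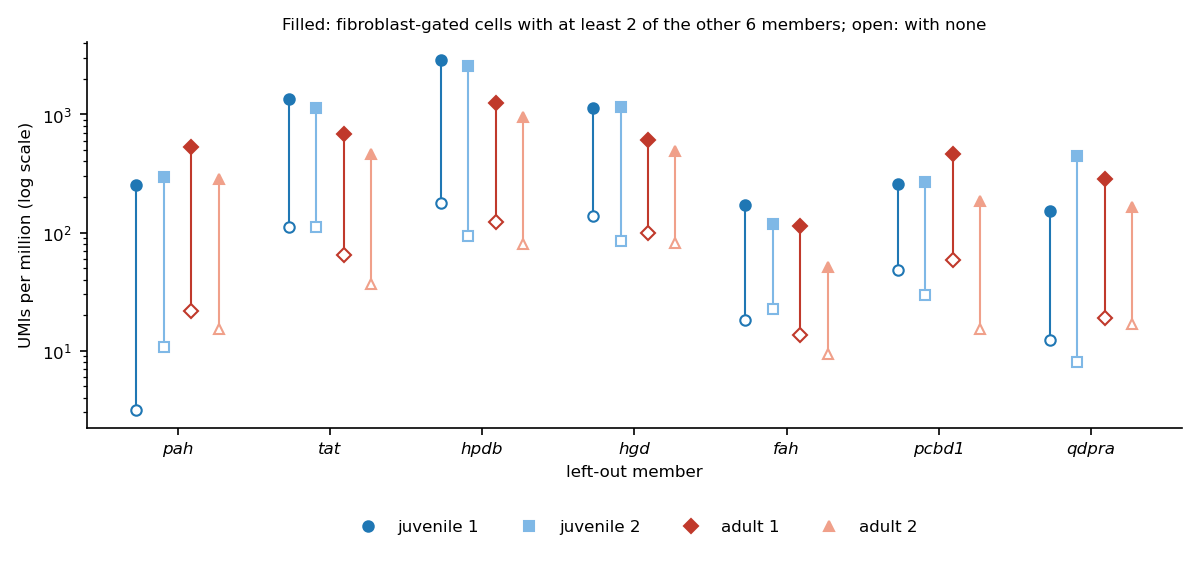
CPM (log axis) of each gene in fibroblast-like cells with at least 2 of the other 6 (filled) and with none of them (open), by library; lines join the pair of a library. Filled points lie above open points in all 28 pairs, from 255 against 3.14 for pah in juvenile 1 to 51.5 against 9.40 for fah in adult 2.

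Over all kept cells, pah stood at 51.7 CPM in juvenile 1, 28.0 in juvenile 2, 232 in adult 1 and 116 in adult 2. The cofactor gene pcbd1 stood at 68.3 and 35.4 in juveniles against 232 and 78.5 in adults, and qdpra at 35.7 and 48.3 against 139 and 70.5. These 3 genes did not overlap between stages. By contrast, tat stood at 228 and 105 against 300.3 and 196, and tat, hpdb, hgd and fah overlapped. With 2 libraries a stage a lack of overlap can easily arise by chance. The share of all genes without overlap was not computed, so the count of 3 does not set these genes apart. Fewer fibroblasts and fewer transcripts per cell cannot be told apart in such sums, and fibroblast-like cells were 8.25% to 10.7% of juvenile and 41.4% to 44.2% of adult cells.

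None of the 7 passed the test between stages over all kept cells (edgeR, adult against juvenile), and neither did any of the 19941 genes tested (0% called). At an unadjusted p under 0.05 there were 5017 genes, and DESeq2 called 2804. For pah the log2 fold change was 2.57 (SE 0.56, adjusted p = 0.0702), for qdpra 1.84 (SE 0.39, adjusted p = 0.0681) and for pcbd1 1.96 (SE 0.61, adjusted p = 0.123). DESeq2 called these 3 genes, with adjusted p = 0.000428, 0.000665 and 0.0227.

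Within fibroblast-like cells none of the 7 genes passed the test between stages (edgeR). The log2 fold change, adult against juvenile, was -1.24 for hpdb (SE 0.49, adjusted p = 0.32), -1.06 for tat (SE 0.50, adjusted p = 0.41) and -0.96 for hgd (SE 0.46, adjusted p = 0.423). For pah it was 0.63 (SE 0.49, adjusted p = 0.667) and for pcbd1 0.32 (SE 0.55, adjusted p = 0.88). Of 10801 genes tested 0.787% were called, with 1450 at an unadjusted p under 0.05, and DESeq2 called 342 genes but none of the 7. With 2 libraries a stage the exact permutation test cannot go below p = 0.33.

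The thinned share of fibroblast-like cells with at least 3 members differed between stages by -9.99 percentage points, adult minus juvenile, a difference that rested on adult 2. Without adult 2 the difference was 2.78 points, and between juvenile 1 and adult 1, which share a sorting gate, it was 1.13 points. Over all kept cells the share was 7.54% and 3.69% in juveniles against 18.7% and 6.56% in adults, which overlapped. The thinned share with at least 1 member was 25.3% and 13.3% against 49.3% and 36.0%, and the share with at least 3 before thinning was 9.92% and 5.03% against 33.8% and 15.9%, and neither overlapped. The contrast of fibroblast-like with other assigned cells was smaller in adults for all 7 genes, with a difference of -3.69 on the log2 scale for hpdb (SE 1.02, adjusted p = 0.232, edgeR interaction chosen after seeing the data). No gene of 14825 passed that interaction (0% called), with 1622 at an unadjusted p under 0.05. The other assigned cells were not the same mixture at both stages: neuron-like cells were 1212 of 3520 and 2043 of 4112 in juveniles but 19 of 646 and 12 of 464 in adults, and smooth muscle-like cells were 13 and 26 against 102 and 195.

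Ratios within a library describe the balance among the genes. In fibroblast-like cells there were 9.56 and 12.4 UMIs of pah for every 100 of hpdb in juvenile 1 and 2, and 44.6 and 31.9 in adult 1 and 2. For pcbd1 there were 10.2 and 11.5 against 39.1 and 20.9. For tat there were 50.5 and 47.0 against 57.6 and 52.1, and for hgd 41.1 and 47.3 against 50.5 and 57.0. The library values of these 4 ratios did not overlap between stages. With 2 libraries a stage such a gap can easily arise by chance. The ratios also share hpdb as denominator, so they are not separate results. Of the 7 genes, hpdb had the largest adult fall in fibroblast-like cells, a log2 fold change of -1.24 that did not pass the test. A lower hpdb level raises every ratio to it. Counting intervals did overlap for tat, where that of adult 2 reached those of both juvenile 1 and juvenile 2, and for hgd in juvenile 2 and adult 1. For pah the gap between the stages was wider than the spread within either, while the adult libraries differed from each other in pcbd1 by more than the nearest adult and juvenile values did.

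**Figure D4:**
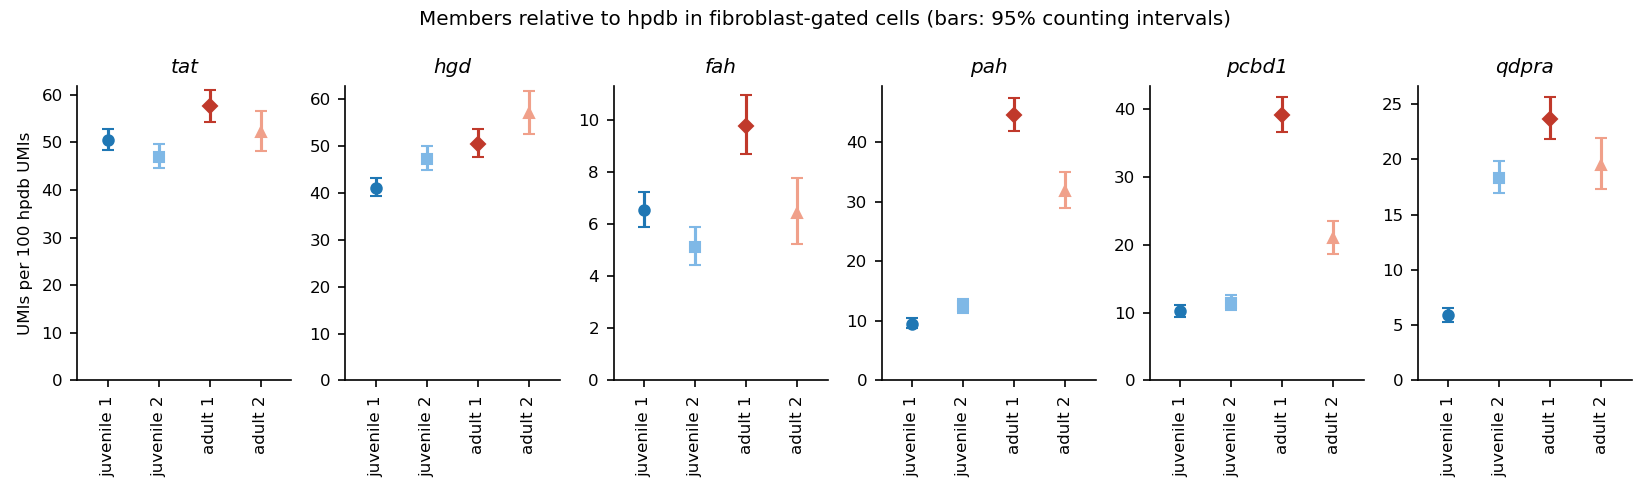
UMIs of each of 6 genes for every 100 UMIs of hpdb (vertical axis, each panel on its own scale from 0) in fibroblast-like cells of the 4 libraries; bars are 95% intervals for counting error. For pah the juvenile points sit at 9.56 and 12.4 and the adult points at 44.6 and 31.9, while tat stays between 47.0 and 57.6.

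This shift of pah against hpdb was described after it was seen, and with 2 libraries a stage its exact permutation p was 0.33, the smallest the design allows. In fibroblast-like cells with at least 5 members pah had 11.7 and 13.6 UMIs for every 100 of hpdb in juveniles and 47.8 and 43.7 in adults. Those cells are a part of the fibroblast-like cells above and were chosen by members that include pah and hpdb, so they are no independent evidence. In unassigned cells the values were 13.4 and 20.5 against 41.0 and 45.7. Between juvenile 1 and adult 1, the pair with the same gate, the ratio went from 9.56 to 44.6 in fibroblast-like cells. In assigned cells other than fibroblasts they were 14.6 and 16.8 against 19.8 and 22.8. The kinds behind these last values differ between stages, since smooth muscle-like cells gave 228 of 283 and 375 of 483 of their hpdb UMIs in adults but 3 of 1173 and 1 of 292 in juveniles, and adult smooth muscle-like cells had 11.8 and 18.9 UMIs of pah for every 100 of hpdb. Whether the shift differs between kinds was not tested.

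For qdpra juvenile 1 stood apart from the other 3 libraries. Its UMIs for every 100 of hpdb in fibroblast-like cells were 5.90 in juvenile 1, 18.4 in juvenile 2, 23.7 in adult 1 and 19.5 in adult 2. These values did not overlap between stages, but the counting intervals of juvenile 2 and adult 2 did. For fah they were 6.54, 5.13, 9.77 and 6.42, which overlapped between stages.

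Other genes of the pathway were read from a list of 49, of which 47 were matched. The paralog hpda had 0 UMIs in fibroblast-like cells of all 4 libraries, and 3 UMIs would be at most 1.27 CPM in any of them. The paralog qdprb1 stood at 3.38, 3.39, 5.27 and 2.45 CPM in these cells, with a log2 fold change of 0.00 against the other assigned cells (SE 0.32, adjusted p = 0.997, edgeR). The pigment gene tyr and the dopamine gene th, whose enzymes use tyrosine, each had 1 UMI in fibroblast-like cells of the 4 libraries together.

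Against other assigned cells, 3 of 30 tested pathway genes were higher in fibroblast-like cells and 5 were lower (edgeR log2 fold changes), where 8.88% and 14.2% of all genes were. Both counts were close to these shares, so they do not set the pathway genes apart. The 3 were gstz1, the isomerase between hgd and fah (1.85, SE 0.47), gch1, which starts tetrahydrobiopterin synthesis (1.98, SE 0.40), and gchfr, its feedback regulator (1.77, SE 0.39). The 5 were the serotonin genes tph1a (-5.31, SE 0.66) and tph2 (-4.55, SE 0.49), the second cyclohydrolase gene gch2 (-2.42, SE 0.64), the amino acid transporter slc7a5 (-2.38, SE 0.38) and the ketone-body gene oxct1a (-2.32, SE 0.48). Few UMIs lie behind the serotonin genes. In fibroblast-like cells with at least 3 members, tph1a had 1, 0, 2 and 0 UMIs and tph2 had 0, 0, 13 and 0, with juveniles first. The median log2 fold change of the 30 was 0.11, against -0.03 over all genes tested.

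Fibroblast-like cells with at least 3 members were then compared with fibroblast-like cells with none. The members themselves formed these groups and are not read. Whether both groups hold the same cell types was not tested. Of the 47 other pathway genes matched, 17 passed the filter on low counts, and of these 9 were higher and 0 lower (edgeR, library as a block), where 2.98% of all 8869 genes were called higher, 3.27% lower and 6.25% in either direction. The 9 include got1, which passed that filter through the group where it was higher. At an unadjusted p under 0.05, 1730 of all genes passed, and DESeq2 called 393. The median log2 fold change of the 17 was 1.21, against 0.04 over all genes tested.

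The isomerase step that the list leaves out was among the 9. Levels of gstz1 were 370, 633, 257 and 351 CPM in cells with at least 3 members of juvenile 1, juvenile 2, adult 1 and adult 2, against 85.3, 62.3, 65.5 and 46.6 in cells with none. Its log2 fold change was 2.91 (SE 0.30, adjusted p = 0.000105). The gene for the first enzyme of tetrahydrobiopterin synthesis, gch1, stood at 81.3, 61.8, 206 and 89.3 against 9.48, 10.8, 8.54 and 19.4, with a log2 fold change of 3.18 (SE 0.35). Its regulator gchfr, which in mammals lets phenylalanine stimulate that enzyme, stood at 299.7, 89.96, 70.2 and 73.6 against 91.6, 48.7, 19.9 and 25.5 (1.80, SE 0.25). For all 3 genes the cells with several members were the higher group in each of the 4 libraries, and for gstz1 and gch1 no value of one group reached the other.

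Genes that use the products, carry the substrates or belong to neighbouring amino acid reactions were also among them, with adjusted p of at most 0.047 (edgeR). The transporter slc16a10, which moves aromatic amino acids, rose by 2.16 (SE 0.31) and slc3a2b, the heavy chain of amino acid exchangers, by 0.91 (SE 0.24). Fumarate hydratase (fh) rose by 1.76 (SE 0.35) and acat1, a thiolase that acts on acetoacetyl-CoA, by 1.27 (SE 0.32). The aspartate aminotransferase gene got1 rose by 1.57 (SE 0.43) and gcdha, of lysine and tryptophan breakdown, by 1.32 (SE 0.35). In the cells with none, got1 had 1, 3, 2 and 5 UMIs in juvenile 1, juvenile 2, adult 1 and adult 2. The values of dnajc12, a chaperone of the aromatic hydroxylases, were 6.33, 8.73, 5.14 and 6.00 against 6.32, 5.42, 8.54 and 7.92, and bdh1 did not pass (-0.25, SE 0.48).

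**Figure D5:**
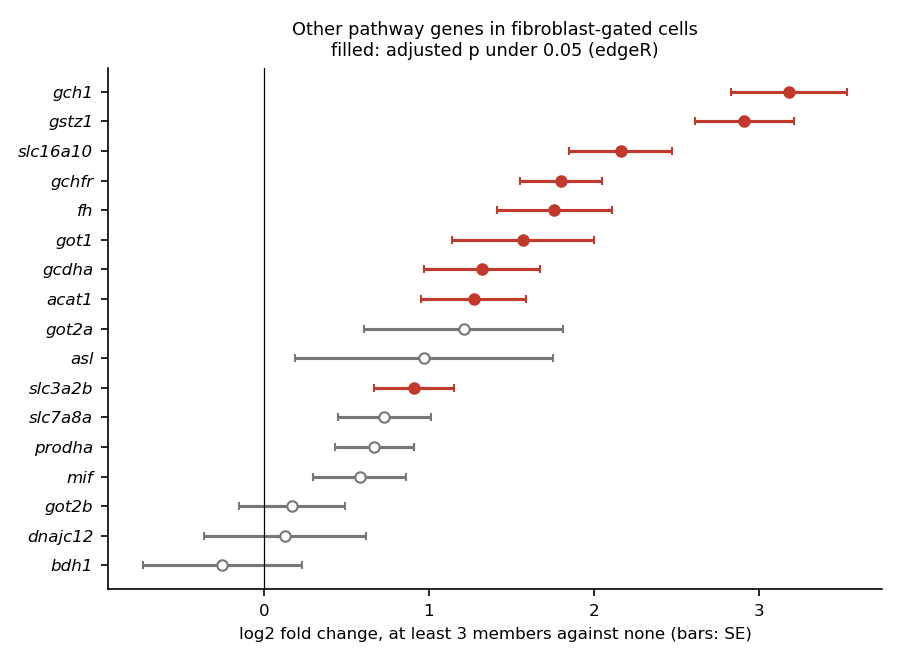
Log2 fold change, with its SE, of the 17 tested pathway genes outside the list, in fibroblast-like cells with at least 3 members against those with none. The 9 filled points passed the test, led by gch1 at 3.18 and gstz1 at 2.91; bdh1, at -0.25, is the sole point below 0.

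The cells compared differ in depth, with medians of 3638 against 1952 UMIs in juvenile 1 and 4254 against 1843 in adult 2. With groups formed on cells thinned to 1000 UMIs, 4 of 9 tested pathway genes passed: gstz1, gch1, gchfr and slc16a10. Over all genes 85 of 2571 were called higher in that fit. The count was 5 of 17 without juvenile 1, 4 of 14 without juvenile 2, 6 of 15 without adult 1 and 4 of 14 without adult 2. Over all genes 188 of 8113, 111 of 7742, 202 of 7998 and 115 of 7219 were called higher in these fits. In all 14 ways of processing tried, gstz1, gch1 and slc16a10 were called higher, and gchfr in 13. Of the same 14, fh was called higher in 10 and slc3a2b in 8. Of the 13 that tested them, acat1 and gcdha were called higher in 5 and got1 in 4.

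Beyond the pathway, the 10 genes with the largest rise in cells with at least 3 members included pck1, of gluconeogenesis (log2 fold change 6.28, SE 0.63), gyg1b, a glycogenin (6.09, SE 0.47), and ptx3a, a pentraxin (4.33, SE 0.32). They also included ttc36 (4.1, SE 0.38, adjusted p = 3.47e-05), fmodb, a matrix proteoglycan (4.16, SE 0.59), and prx (4.76, SE 0.77). The other 4 were si:ch211-262i1.4, zgc:153031, zgc:158482 and the keratin krt91, which is a marker of the epithelial gate. For gyg1b the levels were 2071, 2871, 269 and 2254 CPM against 31.6, 24.4, 19.9 and 41.4, so adult 1 stood apart from the others. For pck1 and prx 3 of the 4 libraries had 0 UMIs in the cells with none, and fmodb and zgc:158482 had 0 in 3. For si:ch211-262i1.4 all 4 libraries had 0 there, and for zgc:153031 both juvenile libraries did. These genes passed the filter on low counts through the cells with at least 3 members. Their fitted fold changes are thus no bounds, and their place among the 10 is no separate support.

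The same ttc36, whose mouse protein protects hydroxyphenylpyruvate dioxygenase from degradation, had the pattern most like that of the 7 genes over cell kinds. Over 48 sums of a library and a kind, its level (log2 of CPM plus 10) had a Pearson r of 0.85 with the summed members, the first of 13220 genes. In fibroblast-like cells it stood at 274, 177, 334 and 88.8 CPM. The next genes were CABZ01092746.1 (0.834), the Wnt-pathway gene sfrp2 (0.818), zgc:56585 (0.816), si:ch211-243a20.3 (0.816), rgs4 (0.802), twist2 (0.801), gyg1b (0.799), neu3.2 (0.793) and si:ch1073-459j12.1 (0.791). These sums share libraries, and kinds of few cells are shallow. Among the members themselves r ran from 0.372, for fah with pcbd1, to 0.899, for hpdb with hgd.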

How the data were processed

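The authors pooled calvaria, sorted live cells, prepared 10x Genomics 3′ libraries and deposited UMI counts per gene and barcode for each of 4 libraries, aligned to GRCz11 with Cell Ranger. The methods name version 3.0.0 and the file headers 3.1.0, and no source used here names the gene annotation. Seurat 4.1.1 is named in the submitters' processing notes. The counts were used as deposited.

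The filter of the methods (over 200 and under 2500 genes, under 25% of UMIs from 6 mitochondrial genes) left 16245 juvenile and 5066 adult cells of 16467 and 5178 barcodes. The libraries held 22012568, 24854689, 6986539 and 7873717 UMIs. No doublet caller was run, and tied cells stayed out of the kinds. UMIs were summed per library and kind (at least 10 cells) and tested with edgeR 4.0.16 (TMM, filterByExpr, quasi-likelihood, Benjamini-Hochberg over all genes tested, threshold 0.05), with DESeq2 1.42.0 as an alternative. The code was tested on simulated data. Thinning drew 1000 UMIs per cell without replacement, leaving out shallower cells. Intervals are exact Poisson for levels and Clopper-Pearson for shares (95%), and cover counting error alone. Exact permutation tests over libraries were two-sided. Levels of different genes are not ranked.

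Members, gene lists and markers were chosen with earlier results of these data known. Members and listed pathway genes may be named, with the 10 genes most correlated with the summed members (at least 200 UMIs) and the 10 that rose most in cells with at least 3 members (at least 20 UMIs, higher in every library). Gates without krt4, krt91 and tagln and the interaction were chosen after seeing the data. Promoter motifs were not searched. Alternatives were: no TMM, DESeq2, no low-count filter, all barcodes, each library left out, gates of 2 or 4 markers, no library block, and other thinning.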

Additional observations from a re-analysis of the deposited data

How the results depend on the processing

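Over all kept cells, 3 of the 7 genes were called higher in adults with DESeq2 and 3 without a filter on low counts, against 0 with edgeR and its filter; leaving out any library gave 0, which leaves 1 library in a stage, assumed to vary like the other stage, and does not show that the result is stable. Over all genes of that comparison, DESeq2 called 1474 of 19941 higher and the fit without a filter 1354 of 32000. Library totals without TMM moved the median log2 fold change of all genes in that comparison from -0.03 to -0.57. Against all other assigned cells, 7 genes were called higher in fibroblast-like cells, 2 without the replicate block for library and 1 to 7 when a library was left out. Without the block 242 of 11239 genes in all were called higher. Against epithelial-like cells the count was 4 without that block (pah, tat and hpdb lost), and pah was also lost without juvenile 2 and with gates of 2 markers. Over all genes 719 of 9318 were called higher there without the block and 619 of 9250 without juvenile 2. With gates of 2 markers 1249 of 12687 were. Against cartilage-like cells hgd and fah were lost without juvenile 2 and without the block, and against macrophage-like cells pcbd1 without the block. Over all genes 696 of 9952, 687 of 9932 and 1553 of 7624 were called higher in these fits. Of 9 other pathway genes higher in cells with at least 3 members, 5 were called without TMM, 3 without the replicate block, 4 after thinning to 1000 UMIs and 4 to 6 when a library was left out. Over all genes 165 of 8869 were called higher without TMM, 27 of 6562 without the block and 85 of 2571 after thinning. With a library left out, these calls ran from 111 of 7742 (without juvenile 2) to 202 of 7998 (without adult 1). The share of fibroblast-like cells with at least 3 members, adult minus juvenile, was -9.99 points, -22.77 to 2.78 when a library was left out (2.78 without adult 2), and 1.13 for the pair with the ecad:YFP gate. Within fibroblast-like cells the stage log2 fold change of pcbd1 ran from -0.54 (without adult 1) to 0.89 and that of qdpra from -0.76 to 0.46 (without juvenile 2), at 0.10 without adult 2, and none passed the test. The calls of left-out members in co-detected cells stayed at 7 in every setting run. Over all genes the fit for pah called 253 of 9286 higher, 19 of 7075 without the block and 481 of 25143 without a filter on low counts. No paired analysis was possible between stages because the labels give no numbers that pair juvenile with adult libraries. Kinds of few cells are limited by depth: 4 UMIs of hgd in 12 adult cartilage-like cells give an interval of 14.1 to 132 CPM.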
